A study of Gossypium hirsutum with 6 samples.

Results

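Chains of close H3K27me3 peaks were runs of 3 or more peaks in leaves of upland cotton in which each neighbour lay at most 5000 bp from the next and no peak was 8000 bp or wider. They were built on the 26 assembled chromosomes (A01 to A13 and D01 to D13) from H3K27me3 replicate 1 peaks that a second broad peak list overlapped by at least 1 bp. By this rule 4042 member peaks fell into 1126 chains, out of 18871 repeated peaks on the chromosomes (21.4%, 95% exact binomial interval 20.8 to 22.0%) and 23427 peaks in the whole list. Members were thus chosen by measured values, namely peak width, gap length and overlap between the broad lists, and these values are given below as a description, without a test. Later tests on the number, share and position of members rest on members chosen by that rule.

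The data came from chromatin immunoprecipitation followed by sequencing (ChIP-seq) on chromatin cut with micrococcal nuclease, from leaves of Gossypium hirsutum line TM-1 plants at an age of 20 days. The 6 samples were 2 libraries with an H3K27me3 antibody, 2 with an H3K4me3 antibody and 2 inputs made without antibody, all from untreated plants of the same line and age. Upland cotton is an allotetraploid whose nucleus holds a D and an A subgenome of 13 chromosomes each, and the comparison of the subgenomes was part of the design. Each antibody library had 1 list of peaks that gave only chromosome, start and end, so they carry neither peak heights nor depth. The read numbers that the study gives for its libraries, and any list of the inputs, were not used here.

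For the second libraries, the deposited list names carry the other mark than the sample labels. The list labelled H3K4me3 replicate 2 was deposited under an H3K27me3 name and is called the second broad list. The list labelled H3K27me3 replicate 2 was deposited under an H3K4me3 name and is called the other narrow list. Chain building followed the deposited name, and every result that rests on either list is given by list. With 2 libraries per mark, the smallest exact permutation p for one mark against the other would be 0.333. The tests below therefore run over chromosomes or chromosome pairs, which are not biological replicates.

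H3K27me3, trimethylation of lysine 27 of histone H3, is laid down by Polycomb repressive complex 2 and marks silent genes, in plants often over the whole transcribed region of a gene. Neighbouring silent genes can carry it side by side. H3K4me3, on lysine 4 of the same histone, is usually found just downstream of the start sites of transcribed genes, so narrow H3K4me3 peaks between H3K27me3 peaks would mark active starts among silent regions. No gene annotation of the genome build behind these lists was used here, and the regions are given by position without gene names.

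Most chains were short. There were 722 chains of 3 peaks (64.1%), 257 of 4, 81 of 5, 37 of 6, 20 of 7 and 6 of 8, and 1 chain each of 9, 10 and 14 peaks. A chain spanned a median of 10269.5 bp, with the shortest at 2971 bp and the longest at 48099 bp, and peaks took up a median of 62.9% of the span. In all, chains spanned 13.03 Mb, or 0.674% of the chromosome length. The other repeated peaks comprised 5130 in 2565 chains of 2 peaks, 7840 single peaks, 1544 in 490 chains that held a peak of 8000 bp or wider, and 315 single peaks of that width. Of the chains with a wide peak, 271 had 3 or more peaks, 1106 in all, and would have been members but for that peak.

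The member peaks were of moderate width. Member width had a median of 1452 bp (quartiles 735 and 2862 bp, lowest 200 bp, highest 7994 bp), and single peaks had a median of 1517 bp. Inner members and members at the chain ends had medians of 1454.5 and 1448 bp. Within a chain the members were unequal, and the widest was a median of 5.11 times as wide as the narrowest and held 50.3% of the chain's peak bases. The 2916 gaps had a median of 1181.5 bp (quartiles 783 and 2144 bp), and peak midpoints followed each other at a median of 3382 bp. The smallest gap was 589 bp here and 541 bp between neighbours of the second broad list. Only 195 gaps (6.69%) were 4000 bp or longer. The widest gaps inside chains were 5000, 4996 and 4986 bp and the narrowest that ended a chain were 5001, 5006 and 5011 bp. The widest members were 7994, 7979 and 7978 bp, and the chains left out with the narrowest such peaks had ones of 8034, 8035 and 8054 bp. In 55 gaps lay a replicate 1 peak that the second broad list did not overlap.

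The chains with the most peaks lay on D chromosomes. All 9 chains of 8 or more peaks were on D chromosomes, and chains of 5 or more peaks made up 100 of 647 chains on D chromosomes (15.5%), against 47 of 479 on A chromosomes (9.81%). The chain with the most peaks, 14, spanned D02:4378005-4419911 (41907 bp), 4.37 Mb from the chromosome end. Its members were 394 to 4185 bp wide and its gaps 599 to 3469 bp long. The second broad list had 15 peaks over this span, and 1 of the 13 gaps was bridged, that is, lay wholly under a single peak of that list. H3K4me3 replicate 1 had a peak in 3 of the 13 gaps and the other narrow list in 1 of them. So this region was split into many peaks in both broad lists, though not at every point in the same way.

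The chain with the largest span covered D05:55230866-55278964 (48099 bp) and had 10 peaks, 266 to 6251 bp wide, with gaps of 621 to 3919 bp. None of its 9 gaps held a peak of either narrow list and none was bridged, and the second broad list had 11 peaks there. It also had the most peaks of the chains on D chromosomes with no narrow peak in their gaps. Its only H3K4me3 replicate 1 peak lay in the first member. The chain of 9 peaks at D06:981976-1015808 (33833 bp) lay 0.974 Mb from the chromosome end. H3K4me3 replicate 1 peaks reached into 2 of its 8 gaps but covered 0.316% of the gap bases.

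On A chromosomes no chain had more than 7 peaks, and 9 had 7. The one with the largest span, A11:88416069-88455533, was 39465 bp long, with a median gap of 3317 bp and H3K4me3 replicate 1 in 1 of 6 gaps. The next by span was A11:84200330-84235231 (34902 bp), where H3K4me3 replicate 1 and the other narrow list each had a peak in 2 of 6 gaps. A05:13117505-13142397 (24893 bp) followed, with H3K4me3 replicate 1 in 2 gaps and the other narrow list in 0. The chain of 7 peaks at A12:85808396-85829870 (21475 bp) had the most peaks of those on A chromosomes without a narrow peak in their gaps, though others of fewer peaks had larger spans. Among chains of 4 or more peaks, H3K4me3 replicate 1 covered most of the gap bases at D03:44203053-44210047 (42.0%, 2 of 3 gaps) on D and at A02:40616-53237 (28.9%, 1 of 3 gaps) on A chromosomes. Both were short chains of 4 peaks, and the other narrow list had no peak in the gaps of either.

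**Figure D1:**
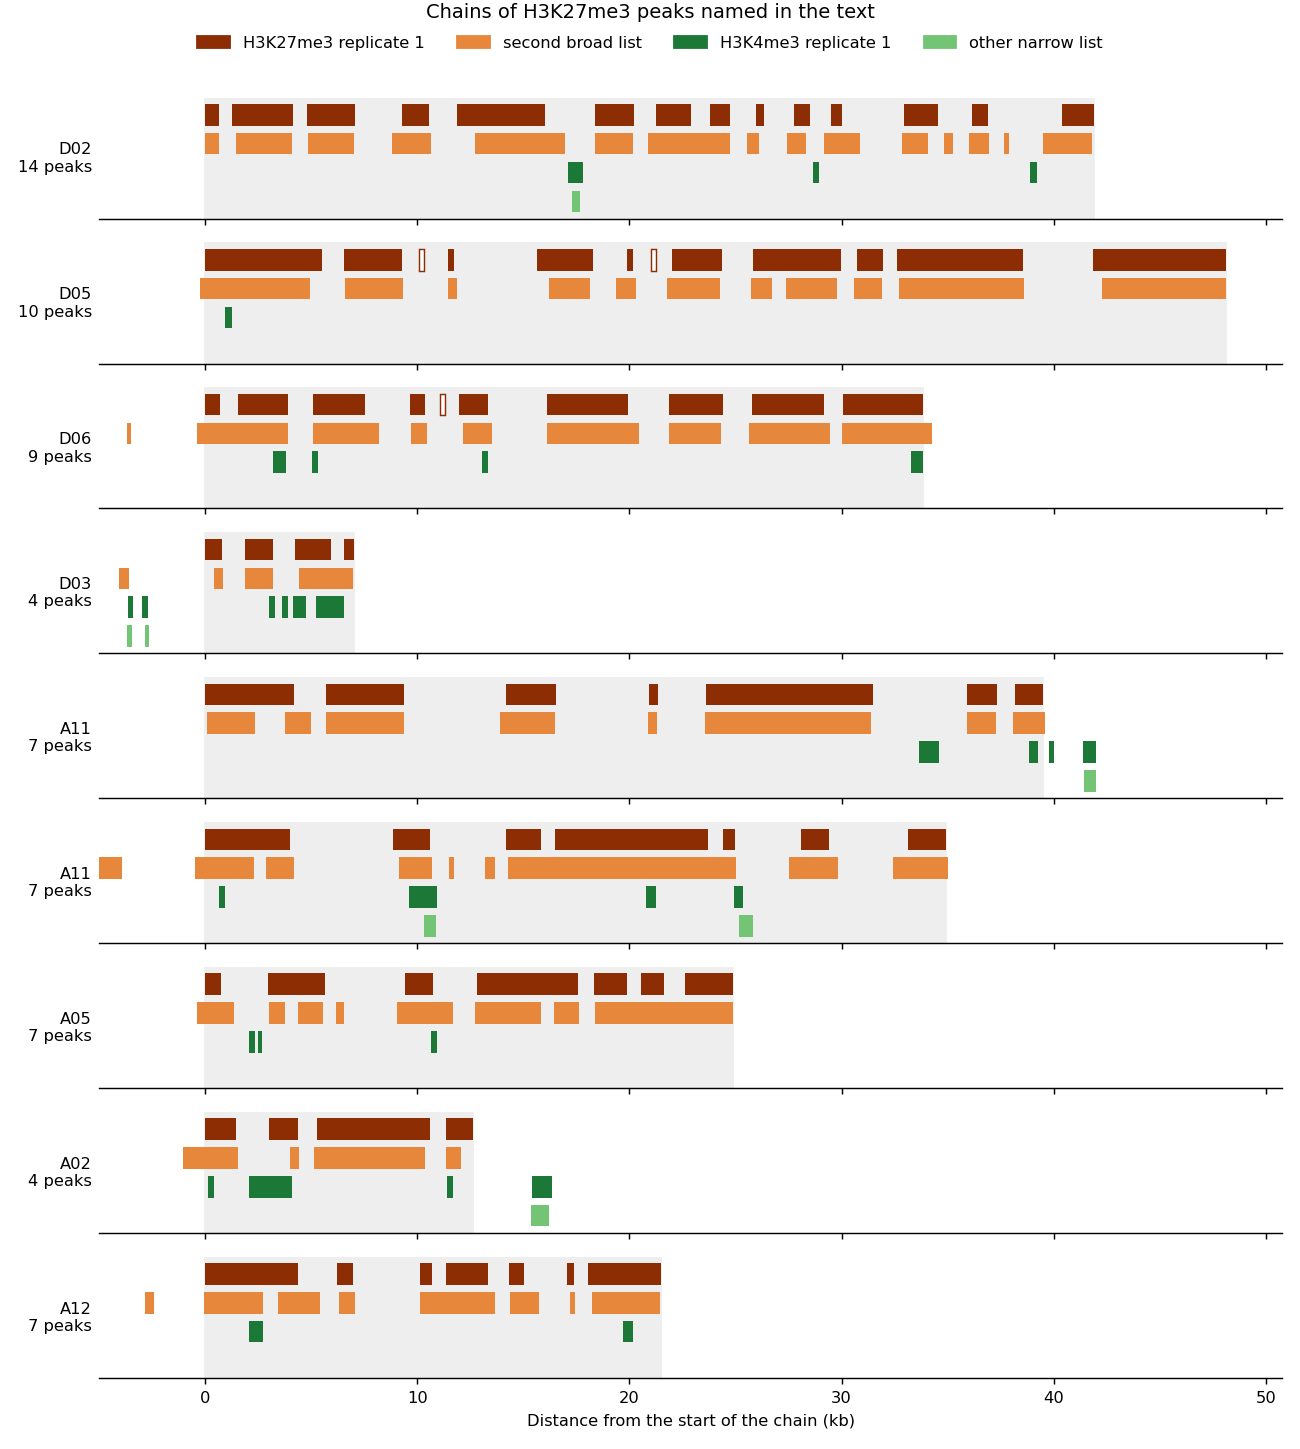
Maps of the 9 named chains on D chromosomes (upper 4) and A chromosomes (lower 5), by distance from the start of the chain in kb, with grey over the span of the chain and peaks shown up to 5 kb to either side. Each row has the peaks of H3K27me3 replicate 1 (hollow where the second broad list had no overlapping peak), the second broad list, H3K4me3 replicate 1 and the other narrow list. The D02 chain has 14 members and the D05 chain no narrow peak in any of its 9 gaps.

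The second broad list had a part in placing the members, since each had to overlap it, and bridging of the gaps by that list is therefore given as a description. A single peak of that list bridged 525 of the 2916 gaps (18.0%, 16.6 to 19.4%). Bridging was a matter of short gaps: it was found in 37.1% (34.3 to 39.9%) of gaps under 1000 bp, in 8.86% (7.11 to 10.9%) of gaps of 1000 to 2000 bp and in 3 of 378 gaps of 2000 to 3000 bp. None of the 232 gaps of 3000 to 4000 bp was bridged (upper bound 1.58%), and none of the 195 of 4000 to 5000 bp (upper bound 1.87%). Gaps of 2-peak chains gave much the same shares, 36.6% under 1000 bp and 8.17% at 1000 to 2000 bp. Counted in the second broad list, 929 of the 1126 chains (82.5%, 80.2 to 84.7%) still comprised 3 or more peaks. In 29 chains every gap was bridged, and none of these had 5 or more peaks. The same rule with the 2 broad lists exchanged gave 1370 chains (756 on D and 614 on A chromosomes), and 875 of the 1126 replicate 1 chains (77.7%) touched one of them, as did 875 of those 1370 chains (63.9%) a replicate 1 chain. These intervals cover counting error only and treat gaps as independent.

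In most chains no gap held an H3K4me3 peak. H3K4me3 replicate 1, a list the rule did not use, had a peak in 571 of the 2916 chain gaps (19.6%, 18.2 to 21.1%), and the other narrow list in 94 (3.22%, 2.61 to 3.93%), of which 85 had both. The other narrow list was the smaller, with 42643 peaks on the chromosomes against 69877 in H3K4me3 replicate 1. No gap had an H3K4me3 replicate 1 peak in 665 of the 1126 chains (59.1%, 56.1 to 61.9%), every gap had one in 42, and 419 had one in some of their gaps. In 274 chains (24.3%) no peak of either narrow list lay anywhere in the span, members included. Of the 571 gaps, 197 held an H3K4me3 peak that lay wholly inside the gap, and in the other 374 the H3K4me3 peaks reached into a member.

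Longer gaps held H3K4me3 more often. An H3K4me3 replicate 1 peak was present in 15.9% (13.8 to 18.1%) of gaps under 1000 bp, 19.2% at 1000 to 2000 bp, 24.3% at 2000 to 3000 bp, 28.0% at 3000 to 4000 bp and 24.6% (18.7 to 31.3%) at 4000 to 5000 bp. A longer gap offers more bases for a peak to touch, and the share of gap bases under these peaks did not follow that order, at 4.54% in gaps under 1000 bp and 2.50% in gaps of 4000 to 5000 bp. By number of peaks in the chain the intervals overlapped: 20.8% (18.8 to 23.0%) held a peak in chains of 3 peaks and 16.7% (13.1 to 20.9%) in chains of 6 or more. Gaps that the second broad list bridged held H3K4me3 replicate 1 in 14.7% (11.8 to 18.0%) of cases, against 20.7% (19.1 to 22.3%) of unbridged ones, but bridged gaps were shorter (median 714 against 1431 bp).

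**Figure D2:**
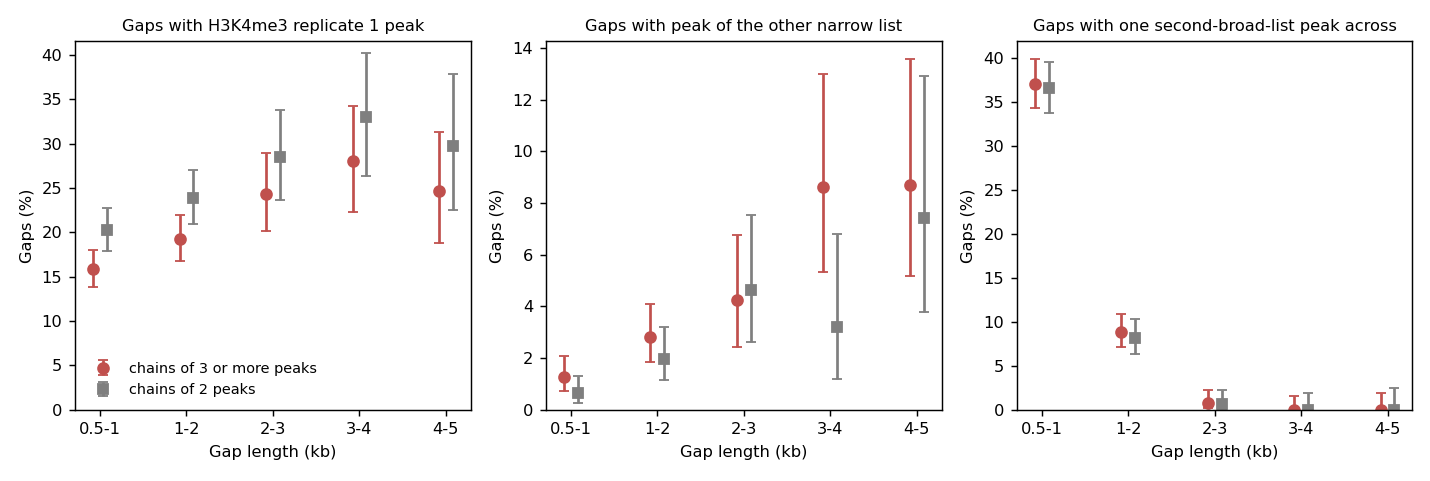
Share of gaps (%) that held an H3K4me3 replicate 1 peak, held a peak of the other narrow list, or were bridged by a single peak of the second broad list, by gap length in kb, for chains of 3 or more peaks (circles) and of 2 peaks (squares). Bars are 95% exact binomial intervals, and bridging is 37.1% under 1 kb and 0 above 3 kb in the chains of 3 or more peaks.

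Gaps of chains were set against the 5000 bp outside each chain end, which hold no repeated H3K27me3 peak by construction. H3K4me3 replicate 1 covered 3.77% of the gap bases and 2.94% of the flank bases, against 2.06% of the chromosomes as a whole. Over chromosomes, cover was 0.868 ± 1.10 percentage points higher in gaps (SD over 26 chromosomes, higher on 22 of 26). A two-sided permutation of signs gave p = 0.00066, or 0.00132 after Benjamini-Hochberg adjustment for the 6 tests made. The other narrow list gave the opposite order: it covered 0.620% of the gaps and 1.49% of the flanks, and the difference was -0.947 ± 0.636 points (lower in gaps on 25 of 26 chromosomes, permutation p = 1e-05, the smallest that 100000 resamples can give). The order also turned to -0.786 points when only H3K4me3 replicate 1 peaks found again in the other narrow list were used. A pair of further alternatives also gave the other sign, -0.738 points with only H3K4me3 replicate 1 peaks off every repeated H3K27me3 peak and -5.35 points with the share of places that held a peak. In these, gaps were higher on 5 and 8 of 26 chromosomes. A gap has a member at either end and is shorter than a flank, and what this did to the signs was not tested. In H3K4me3 replicate 1 cover, the difference was 1.79 points with chains built from the second broad list alone (24 of 26 chromosomes). With a gap limit of 3000 bp it was 1.54 points. The direction thus depended on the narrow list used, on which H3K4me3 replicate 1 peaks were counted and on the measure taken.

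The profile by distance from the member edges gave the same order of gap and outer edges in both narrow lists at the distances given here. From 250 to 500 bp outside the member, H3K4me3 replicate 1 covered 3.35% of bases at edges facing a gap and 1.92% at outer ends of chains. From 2000 to 2250 bp these values were 1.69% and 3.36%. In the other narrow list the values were 0.421% and 0.0583% near the edge, and 0.690% and 1.86% further off. Edges facing a gap were followed to the middle of the gap. Their values from 2000 to 2250 bp thus came only from gaps of 4000 bp or longer (390 pieces, against 5832 from 250 to 500 bp). Outer ends gave 2252 pieces at both distances, so the change of order mixes distance with gap length. Within 1000 bp of a member edge, a choice made after these profiles were seen, gaps had the higher cover in both narrow lists: 1.66 ± 1.32 points higher for H3K4me3 replicate 1 (23 of 26 chromosomes, permutation adjusted p = 3.0e-05) and 0.238 ± 0.483 points higher for the other narrow list (17 of 26, permutation adjusted p = 0.0278). The second broad list, too, ran further past edges facing a gap than past outer ends, covering 24.2% and 13.8% of bases from 250 to 500 bp. Whether the H3K4me3 values near the edges go with uneven placement of H3K27me3 edges was not tested.

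**Figure D3:**
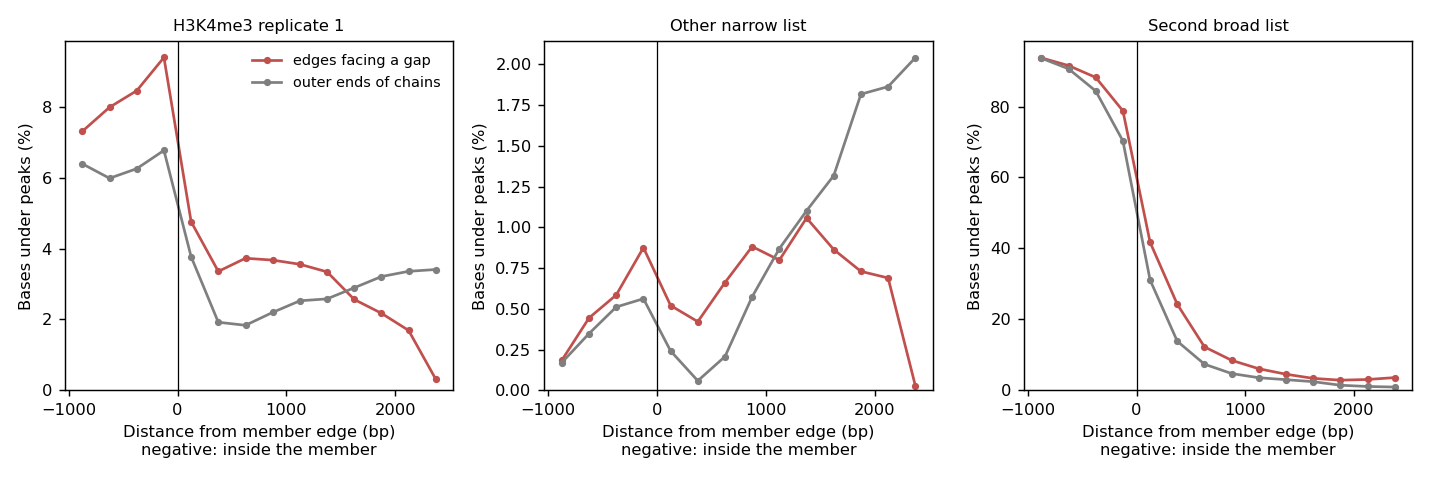
Bases under peaks (%) of H3K4me3 replicate 1, the other narrow list and the second broad list in steps of 250 bp from the edges of member peaks, for edges facing a gap (up to the middle of the gap) and for outer ends of chains, with negative distances inside the member. The curves of both narrow lists cross, with edges facing a gap higher at 250 to 500 bp and lower at 2000 to 2250 bp. At the latter distance, only gaps of 4000 bp or longer contribute to the edges facing a gap.

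In H3K4me3 replicate 1, though not in the other narrow list, the gaps of chains of 3 or more peaks had less cover than the gaps of 2-peak chains. H3K4me3 replicate 1 peaks lay in 19.6% of the chain gaps and in 23.9% (22.3 to 25.6%) of 2-peak gaps, and covered 3.77% and 4.69% of the bases. Over chromosomes the difference in cover was -1.01 ± 1.66 points (lower on 22 of 26, permutation adjusted p = 0.00582). In the other narrow list it had the other sign, at 0.0975 points, and did not pass (permutation adjusted p = 0.432), and with a gap limit of 3000 or 10000 bp it was -0.555 and -0.511 points and did not pass.

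Members were touched by H3K4me3 replicate 1 less often than single peaks were. H3K4me3 replicate 1 touched 28.8% (27.4 to 30.2%) of member peaks and covered 7.73% of their bases, against 45.8% (44.7 to 46.9%) and 12.5% for single peaks, with peaks of 2-peak chains between them at 32.8% (31.5 to 34.1%) and 9.15%. The order held in each width class: among peaks of 200 to 1000 bp, 18.2% (16.2 to 20.3%) of members and 32.2% (30.4 to 34.0%) of single peaks had H3K4me3, and among those of 4000 to 8000 bp, 56.6% (52.4 to 60.8%) and 69.7% (66.9 to 72.4%). In the other narrow list 2.47% (2.02 to 3.001%) of members and 3.19% (2.81 to 3.602%) of single peaks were touched, with intervals that overlapped. By width, that list touched 2.02% of members and 4.44% of single peaks at 200 to 1000 bp, and 2.69% and 2.81% at 1000 to 2000 bp. The order was the other way at 2000 to 4000 bp (2.69% and 2.48%) and at 4000 to 8000 bp (2.86% and 2.11%). No test was planned for these values.

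To compare the subgenomes, the D and A chromosomes of the same number were paired. D chromosomes held 2370 member peaks in 647 chains, out of 10393 repeated peaks, and A chromosomes 1672 in 479, out of 8478. A ratio of member counts thus includes the larger number of repeated peaks on D chromosomes. The log2 ratio of D to A member peaks was 0.52 ± 0.38 (SD over 13 pairs), with D ahead in 12 of them (two-sided exact permutation of signs, p = 0.000488 and adjusted p = 0.00132). Pair 2 had the highest ratio, with 215 member peaks on D02 and 76 on A02, and pair 12 the lowest, with 143 on D12 and 144 on A12. D05 alone held 382 members, 27.3% of its repeated peaks, against 218 on A05 (20.7%). Without any 1 pair the mean ratio lay between 0.44 and 0.57. The highest and lowest pairs named here hold for the pairing by number only. In an alternative added later, pairs 2 and 3 exchanged their D chromosomes, as did pairs 4 and 5. The ratio was then 0.52 ± 0.65, with D ahead in 11 of 13 pairs (exact permutation adjusted p = 0.0139).

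Under the limit of 5000 bp, a larger share of the D peaks was chained. On average 22.5% of the repeated peaks of a D chromosome were members, against 19.3% of those of an A chromosome, a difference of 3.23 ± 3.97 percentage points (9 of 13 pairs with the higher share on D, p = 0.0122 and adjusted p = 0.0146 by exact permutation). Pairs 8, 9, 11 and 12 went the other way. The repeated peaks themselves stood closer together on D chromosomes, which are shorter: there were 13.4 per Mb on D and 7.31 per Mb on A chromosomes, and the median gap between neighbours was 14.2 and 22.3 kb. A fixed gap limit takes more peaks where peaks are dense, so the test of shares cannot separate chaining from peak density. In an alternative added after the data were seen, the gap limit on each A chromosome was lengthened by the ratio of its length to that of its D partner. Neither difference then passed the threshold. The log2 ratio kept its sign at 0.23 (D ahead in 8 of 13 pairs, exact permutation adjusted p = 0.0798). The difference in share changed sign, to -1.18 points (exact permutation adjusted p = 0.503). Gap limits of 3000 and 10000 bp and chains built from the second broad list alone kept the ratio past the threshold but not the difference in share. Per Mb, members numbered 3.06 on D and 1.44 on A chromosomes.

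The chains of both subgenomes had similar median sizes, though chains of 5 or more peaks were 15.5% of those on D and 9.81% on A chromosomes. Member width had a median of 1493.5 bp on D and 1401 bp on A chromosomes, gaps of 1151 and 1212 bp, and spans of 10548 and 9934 bp. H3K4me3 replicate 1 covered 3.87% of the gap bases on D and 3.64% on A chromosomes, and 382 of 647 D chains and 283 of 479 A chains, 59.0% and 59.1%, had none in their gaps. Over pairs the D minus A difference in cover was 0.287 ± 1.29 points (positive in 8 of 13, p = 0.430 and adjusted p = 0.430 by exact permutation), so no difference was detectable. Its sign changed with several settings.

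**Figure D4:**
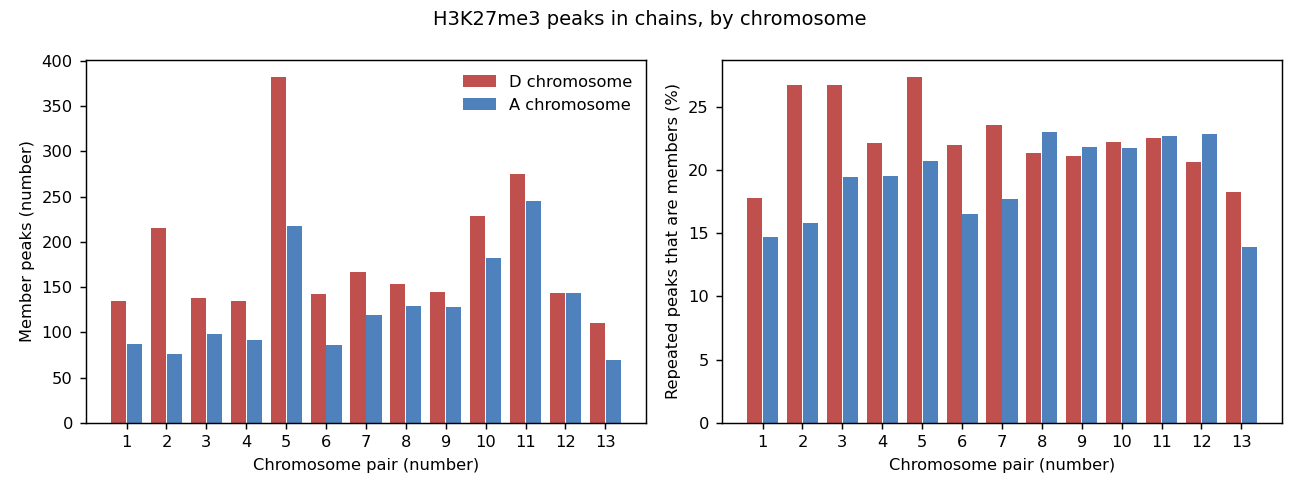
Number of member peaks (left) and share of repeated peaks that were members, in % (right), for the D and the A chromosome of each of the 13 pairs, with 1 bar per chromosome. D05 has 382 members, D02 has 215 against 76 on A02, and the shares of pairs 8, 9, 11 and 12 are higher on the A chromosome.

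Members lay closer to the chromosome ends than single peaks did. The median distance to the nearer end, as a share of chromosome length and averaged over chromosomes, was 7.64% for members and 13.6% for single peaks. The difference was -5.93 ± 2.78 percentage points and negative on 26 of 26 chromosomes (two-sided sign-flip permutation p = 1e-05, the smallest that 100000 resamples can give, adjusted p = 6.0e-05). It was smallest on A09 (12.5% for members and 13.7% for single peaks), A05 (14.2% and 16.0%), D12 (15.8% and 17.9%) and D05 (15.7% and 18.0%). Members of A05, D12 and D05 lay further from the ends than those of any other chromosome. Against peaks of 2-peak chains, a comparison added later, the difference was -4.39 points. Members and the other peaks were told apart by distance between neighbours, so these differences cannot separate position from peak density.

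In all, 45.9% (44.4 to 47.5%) of members lay within 5 Mb of an end, against 28.3% (27.3 to 29.3%) of single peaks. Members made up 27.02% (25.8 to 28.3%) of the repeated peaks in the outermost 5% of the chromosome length and 13.6% (11.01 to 16.5%) in the innermost. The density of all repeated peaks ran the same way, at 26.3 and 3.23 per Mb in these places, and that of members was 7.11 and 0.439 per Mb. A rule on distance between neighbours takes more peaks where peaks are dense, and the part of density in the position of the members was not tested.

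**Figure D5:**
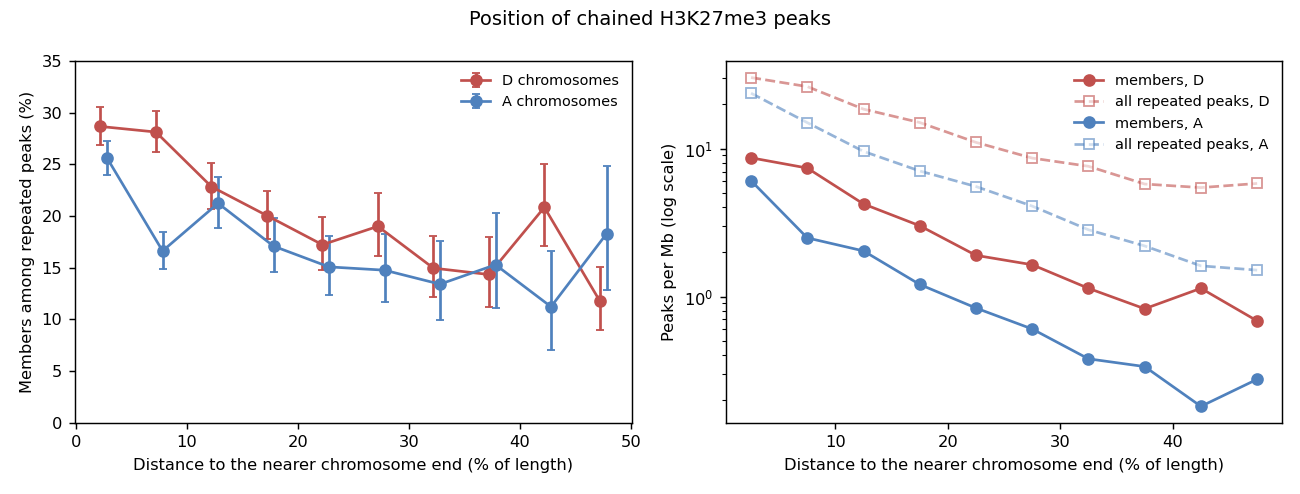
Left, share of repeated H3K27me3 peaks that were members (%, bars are 95% exact binomial intervals) by distance to the nearer chromosome end in % of chromosome length, for D and A chromosomes, with points set slightly apart. Right, members (filled) and all repeated peaks (hollow) per Mb on a log scale, both of which fall with the distance from the end.

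Some chains lay near each other. The distance to the next chain on the same chromosome had a median of 0.394 Mb on D and 0.617 Mb on A chromosomes, and 173 of 1100 such distances were under 0.1 Mb. Of 1946 windows of 1 Mb, 629 held a chain and 131 held 3 or more. The window with the most chains on A chromosomes was A10:99000001-100000000, with 8 chains that comprised 29 of its 68 repeated peaks. On D chromosomes D11:4000001-5000000 had 7 chains (25 of 55 repeated peaks), and D01:3000001-4000000 had 7 as well (23 of 68).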

How the data were processed

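Peak lists were deposited by the authors as 3 columns (chromosome, start, end), 1 list for each of the 4 antibody libraries. Per the methods of the study, reads were trimmed with fastp, aligned with Bowtie2 to a published TM-1 genome and filtered with Picard and samtools, and peaks were called with MACS2, in broad mode for H3K27me3. Broad mode joins nearby enriched stretches, and very short gaps do not occur in these lists. The MACS2 version and the use of the inputs as control were not given in the sources used here. The study calls the libraries of each mark biological replicates, but whether they came from separate plants was not stated. Its own peaks and later analyses rest on replicate 1, and replicate 2 served to check reproducibility.

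Chains, gaps and flanks were computed with Python 3.11.15 and numpy 2.4.6, and positions are printed counted from 1. Chromosome length was taken between the outermost peaks of any list. Differences between paired chromosomes (8192 sign patterns) or over 26 chromosomes (100000 resamples) were tested by two-sided sign-flip permutation, with Benjamini-Hochberg adjustment over 6 tests at 0.05. The tests were checked on simulated data, and 0 of 24 overlap values differed from bedtools 2.31.1. The members and the lists were chosen with earlier results of these data known. In each subgenome the named regions are the 3 chains with the most peaks, the chain with the largest span, that of 4 or more peaks with the highest H3K4me3 replicate 1 cover of its gaps, that with the most peaks, then the largest span, among chains without a narrow peak in their gaps and the 1 Mb window with the most chains, and pairs of chromosomes were named for the highest and the lowest D to A ratio. D01:3000001-4000000 was added after its values were seen, as a tie. Alternatives varied the gap limit, the overlap, the chain size, the width limit, the flanks, the lists used and the pairing of chromosomes. Scaffolds were left out of the chains.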

Additional observations from a re-analysis of the deposited data

Results flagged for a closer look

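The gap minus flank difference in cover had opposite signs in the narrow lists: 0.868 points in H3K4me3 replicate 1 and -0.947 points in the other narrow list. This was looked at again because the same contrast differed between lists by a test of the difference itself, which was 1.81 ± 1.07 percentage points (SD, positive on 25 of 26 chromosomes, two-sided sign-flip permutation p = 1e-05, the smallest that 100000 resamples can give). The test was chosen after both values were seen.

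The same rule applied to sequences outside the 26 chromosomes, which no comparison uses, gave 135 chains with 496 of the 2443 repeated peaks on scaffolds. These chains were looked at because they are signal in data left out of the comparisons, with no control list to set them against.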

How the results depend on the processing

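The distance of members to the chromosome ends kept its sign and passed the threshold in all 22 alternatives (-7.33 to -4.39 points), and the D to A log2 ratio in 22 of 23 (up to 1.10 per Mb), the exception being the gap limit scaled to chromosome length (0.232). The alternatives for the distance to the ends all chose members by distance between neighbours, so none tells position apart from peak density. The D minus A difference in share did not pass with gap limits of 3000 bp (1.95) and 10000 bp (2.81). Nor did it pass with chains from the second broad list alone (1.57), against 3.07 with chains from all H3K27me3 replicate 1 peaks. With the scaled limit it was -1.18. The D minus A difference in gap cover never passed. Its highest value was 1.09, with H3K4me3 replicate 1 cover and a gap limit of 3000 bp (positive in 9 of 13 pairs, exact permutation adjusted p = 0.0571). With H3K4me3 replicate 1 cover it was -0.160 at 10000 bp and -0.0325 with chains from the second broad list alone. With the same cover and chains from all H3K27me3 replicate 1 peaks it was 0.199. It was -0.129 in the other narrow list and -1.09 as the share of places with a peak. With H3K4me3 replicate 1 peaks found in the other narrow list it was -0.236. The difference between gaps and flanks was -0.947 in the other narrow list, -5.35 as the share of places, -0.786 with peaks found in both narrow lists and -0.738 with peaks off repeated H3K27me3 peaks, and did not pass in chains of 4 or more peaks (0.698). With H3K4me3 replicate 1 cover it was larger with chains from the second broad list alone (1.79) and from all H3K27me3 replicate 1 peaks (1.21). With that cover it was also larger at 3000 bp (1.54), with flanks of 2000 bp (1.23) and within 1000 bp of member edges (1.66). The difference between chain gaps and 2-peak gaps was 0.0975 in the other narrow list and 0.0532 with peaks found in both, and did not pass at 3000 bp (-0.555) and 10000 bp (-0.511). The cause of these changes was not tested.

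Leaving out any 1 chromosome pair changed no call, with ranges of 0.44 to 0.57 for the log2 ratio, 2.59 to 3.69 for the share, 0.155 to 0.479 and 0.806 to 0.964 for the gap cover of D minus A and of gaps minus flanks, -1.17 to -0.846 against 2-peak gaps and -6.25 to -5.69 for the distance to the ends. No paired analysis was possible because no result comes from a test over libraries, so that replicate numbers had nothing to pair, and the only pairing used was that of chromosomes. Number of chains moved with the gap limit and list, to 2029 for the second broad list alone and 927 when 50% of each replicate 1 peak had to be overlapped. Without peak heights or read signal, weak H3K27me3 between peaks could not be told apart from its absence.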
